A study of Mus musculus with 8 samples.

Results

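Cytosolic ribosomal protein genes were examined in hippocampal RNA from 4 adult male mice exposed to bisphenol A (BPA) through their mothers and 4 control males. They were taken by gene symbol: names starting with Rpl or Rps and a digit, Rplp0 to Rplp2 and Rpsa, without S6 kinases and symbols marked as pseudogenes, and with at least 80 reads over the 8 libraries. This gave 84 of the 24527 genes in the count table, of which 33 were counted by symbol to the small subunit and 50 to the large subunit. The remaining gene, Rps19bp1, encodes a protein that binds RPS19 and is not itself a ribosomal protein, so it was kept out of the subunit values. Rpl7l1, which acts in ribosome assembly, was kept among the 50 by its symbol. All 84 passed the filter on low counts and were among the 15434 genes tested.

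BPA is a monomer of polycarbonate plastic that can act on hormone receptors. Dams of the BPA group ate a low-phytoestrogen diet with 50 mg BPA per kg through gestation and lactation, and dams of the control group ate the same diet with 0 mg. From weaning on postnatal day 21 all mice ate control diet. All 8 mice were wild-type C57BL/6J males, 20 weeks old. The comparison asked which hippocampal transcripts still differ in adulthood after early exposure. The labels name no litters, so the p-values cover only the spread among these 8 mice.

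The cytosolic ribosome joins a small subunit, which reads the mRNA, to a large subunit, which links amino acids, and most ribosomal proteins are present as a single copy in each ribosome. The stalk proteins, Rplp1 among them, are present in more than 1 copy. Their mRNAs belong to the TOP class (terminal oligopyrimidine): they begin with a run of C and T letters through which mTORC1 signalling and the LARP1 protein set how strongly they are translated. Neurons also hold these mRNAs in dendrites and axons. Free ribosomal proteins in excess of rRNA are degraded, so mRNA level and protein level of a single gene need not run together.

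Libraries held 43119986 to 54013884 counts in BPA mice and 27135071 to 40793192 counts in controls, so depth and exposure cannot be told apart by group. Summed neuron markers ran from 12516 to 13018 CPM (read counts scaled by library size) in BPA mice and from 11971 to 13890 CPM in controls, so the markers of the labelled tissue were present in every library. Choroid plexus markers, all 14 of which were measured, summed to 171 to 860 CPM in BPA mice and 217 to 3210 CPM in controls, with control replicate 2 and then BPA replicate 3 highest. All 14 had a log2 fold change below 0 (median -1.26), as did all 9 ependymal markers (median -0.43). None passed an edgeR adjusted p of 0.05. The part of either in the ribosomal protein values was not tested. Without control replicate 2 and BPA replicate 3 the median log2 fold changes were -0.00094 for the small subunit and 0.045 for the large. In bulk tissue, fewer cells of a type and less RNA per cell cannot be told apart.

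The pyrimidine runs of the TOP class were looked for at the start sites. RefSeq starts on GRCm38.p6 were matched for 62 of the 83 genes. A run of at least 8 consecutive C or T letters touching the 11 bases around the annotated start was present in 25 of the 62 (40.3%), against 11.4% of all 27025 genes with a listed start and 12.4% of those tested here. It was present in 37.5% of small subunit and 42.1% of large subunit genes. The windows below are of 7 genes among those with the smallest p of their subunit in this comparison. They are examples, so the share of runs among them does not stand for the set. Of others not shown, Rpl22l1 has a run of 10 letters and Rpsa of 3. Each window holds 15 bases before and 15 bases from the start, with the longest run of C and T touching the start in capitals. The first 5 have a run of at least 8 letters and the last 2, Rpl41 and Rps2, do not.
Rps6, chr4:86857353-86857382, minus strand: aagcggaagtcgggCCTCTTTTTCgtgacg
Rps24, chr14:24490663-24490692, plus strand: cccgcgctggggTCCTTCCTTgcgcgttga
Rpl19, chr11:98026909-98026938, plus strand: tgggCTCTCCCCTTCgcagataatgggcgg
Rpl35, chr2:39005117-39005146, minus strand: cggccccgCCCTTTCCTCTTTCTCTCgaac
Rpl13a, chr7:45128731-45128760, minus strand: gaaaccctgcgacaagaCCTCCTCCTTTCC
Rpl41, chr10:128549154-128549183, minus strand: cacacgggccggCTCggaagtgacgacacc
Rps2, chr17:24720048-24720077, plus strand: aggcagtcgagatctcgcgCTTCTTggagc

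Rpl19 and Rps24 each have a second listed start without such a run. Over the 300 bases from 250 before to 50 after the start, CCGGAA, the core letters bound by ETS factors, was found on either strand at 53.2% of the ribosomal protein genes, at 27.9% of the 11785 tested genes with a listed start and at 16.7% of all genes listed. CTCTTT was found at 43.5%, against 23.0% of tested and 25.6% of all genes, and CTTTCC, which can overlap it, at 50.0%, against 30.4% of tested and 29.3% of all genes. TATAAA was found at 12.9% of the ribosomal protein genes, which is above its 9.1% among tested genes and below its 15.7% among all genes. These are matches of letters only, and an annotated start may lie some bases from the one used in hippocampus.

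The genes shared other features that their selection by name did not use. Their exons, merged over the transcripts of a gene, were short in total. The median was 833 bases in GENCODE M21 against 3168 bases over tested genes with a length. A small nucleolar RNA lay within 30 of the 83 genes (36.1%), 10 of the small and 20 of the large subunit, against 2.00% of the 15074 tested genes found in the annotation. They lay on 19 chromosomes. Many have processed copies elsewhere: a median of 57.6% of the 50-base words of a gene's transcripts occurred in no annotated gene at another locus, and 3 genes had under 10% such words.

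Measured levels were far from equal across the ribosome. All 83 genes together took 0.480 to 0.516% of counts in BPA libraries and 0.462 to 0.5003% in control libraries. Per kb of exon, the median level was 41.3 CPM in BPA mice and 41.6 CPM in controls. The highest gene stood 698-fold above the lowest, Rpl30, whose count may not give its level. The median was 50.4 CPM per kb in BPA mice and 48.4 CPM per kb in controls for the large subunit, and 38.9 CPM per kb in BPA mice and 39.4 CPM per kb in controls for the small. Lengths are merged exons of RefSeq-matched GENCODE transcripts, so a gene with a long annotated end is placed lower. Where none matched, all transcripts were used, as for Rpl37rt, Rpl32l, Rpl31-ps12 and Rpl14-ps1.

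Rplp1, a protein of the large subunit stalk that engages elongation factors, had the highest level per length, 671 ± 46.7 CPM per kb in BPA mice and 642 ± 61.2 CPM per kb in controls (SD, n = 4 each). Rpl4, at the wall of the peptide exit tunnel, followed with 362 ± 16.1 CPM per kb in BPA mice and 345 ± 13.04 CPM per kb in controls. It is named here because it had the most reads, a choice made after its values were seen. Rps6, the small subunit protein phosphorylated by S6 kinases, led its subunit with 161 ± 8.41 CPM per kb in BPA mice and 145 ± 6.70 CPM per kb in controls. Its neighbour in the order, Rps15, was at 157 ± 9.72 CPM per kb in BPA mice and 149 ± 9.56 CPM per kb in controls, a difference within their spread.

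At the low end, Rpl30 of the large subunit was at 0.941 ± 0.279 CPM per kb in BPA mice and 0.941 ± 0.150 CPM per kb in controls. Rps27 of the small subunit was at 1.38 ± 0.162 CPM per kb in BPA mice and 1.71 ± 0.294 CPM per kb in controls, and only 1.4% of its 50-base words were unique. With 166 reads over all libraries Rps27 was also the gene just inside the read minimum. Rpl3l, Rpl39l and Rpl26 lay outside it with 44, 7 and 1 reads. Rpl26 is a constitutive ribosomal protein, so its count of 1 should not be read as its level. Nor should the low counts of Rpl30, Rpl34 and Rps27. Some words of Rpl30 also occur in 16 genes elsewhere, and some of Rpl34 in 9. The handling of reads that match several loci was not stated in the labels.

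**Figure D1:**
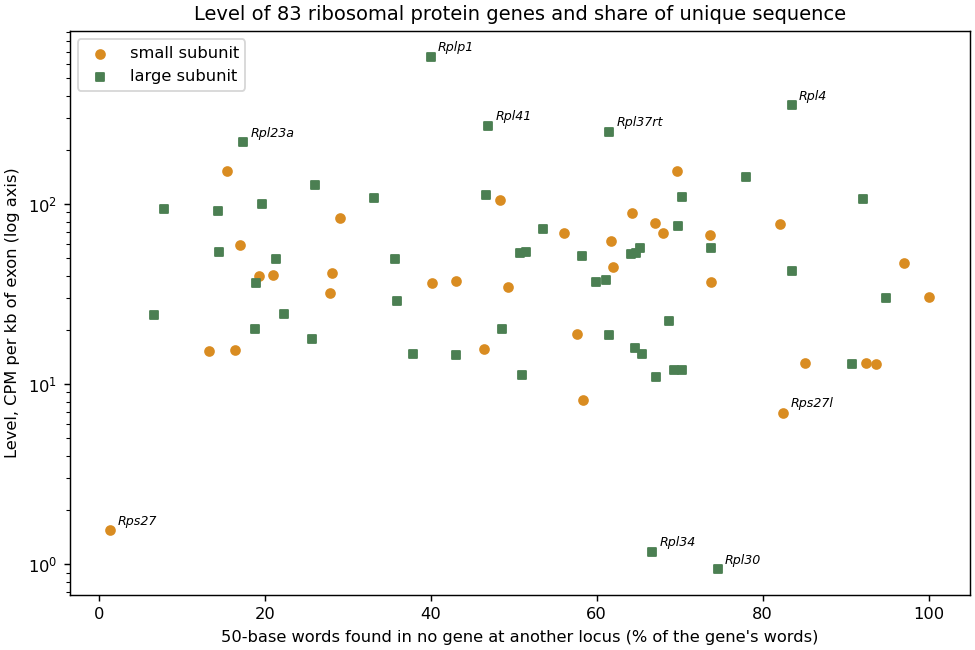
Level of each of the 83 genes (vertical log axis, CPM per kb of exon, mean of the BPA and control means) against the percent of its 50-base words found in no annotated gene at another locus (horizontal axis); circles are small subunit and squares large subunit genes. Rps27 is at the left edge with 1.4% unique words, while Rpl30 and Rpl34 are as low with 74.6% and 66.7%. The low counts of these genes should not be read as their levels.

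Across the 83 genes, level per kb and percent of unique words had a Spearman rho of -0.11, and level and length -0.04; these are descriptions over genes of the same 8 libraries. Some processed copies had counts of their own. Rpl37rt, which the symbol rule takes and which GENCODE lists as a processed pseudogene on chromosome 5, was at 246 CPM per kb in BPA mice and 259 CPM per kb in controls, while Rpl37 on chromosome 15 was at 22.5 CPM per kb in BPA mice and 22.4 CPM per kb in controls. Rpl31-ps12, left out by the rule, was at 262 CPM per kb in BPA mice and 239 CPM per kb in controls, against 11.1 CPM per kb in BPA mice and 10.8 CPM per kb in controls for Rpl31. Rpl14-ps1, also left out, was at 174 CPM per kb in BPA mice and 162 CPM per kb in controls, against 54.7 CPM per kb in BPA mice and 52.04 CPM per kb in controls for Rpl14. Reads of such pairs cannot be assigned with certainty, so a parent gene and its copy are both uncertain.

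No ribosomal protein gene passed the threshold between BPA and control mice. The edgeR quasi-likelihood test, with Benjamini-Hochberg adjustment over all genes tested, called 0 of 83 at an adjusted p of 0.05, and the lowest adjusted p was 0.955. It called 0 of 15434 genes in all (0%), with 698 at an unadjusted p under 0.05. DESeq2 called 7 genes (627 at an unadjusted p under 0.05) and limma-voom 0 (703 at that p), none of them ribosomal protein genes by either tool. The 95% interval of the fold stayed inside 1.5-fold in both directions for 82 of the 83 genes, as it did for 85.4% of tested genes. The exception was Rps27, with bounds of 0.592 and 1.13.

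Of the large subunit genes 35 of 50 had a log2 fold change above 0, with a median of 0.045, and of the small subunit genes 16 of 33, with a median of -0.014. Over all tested genes 50% were above 0, with a median of 0.000039. The quartiles were -0.0090 and 0.089 for the large subunit, -0.075 and 0.039 for the small, and -0.062 and 0.057 for all genes tested. The median SE of a single gene was 0.061. With library total as a covariate the small subunit median was 0.045 and the large 0.083. Library totals did not overlap between the groups, so here and below values with this covariate cannot separate depth from exposure. Without BPA replicate 1 the large subunit median was 0.016, and without control replicate 4 the small subunit median was 0.0050.

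**Figure D2:**
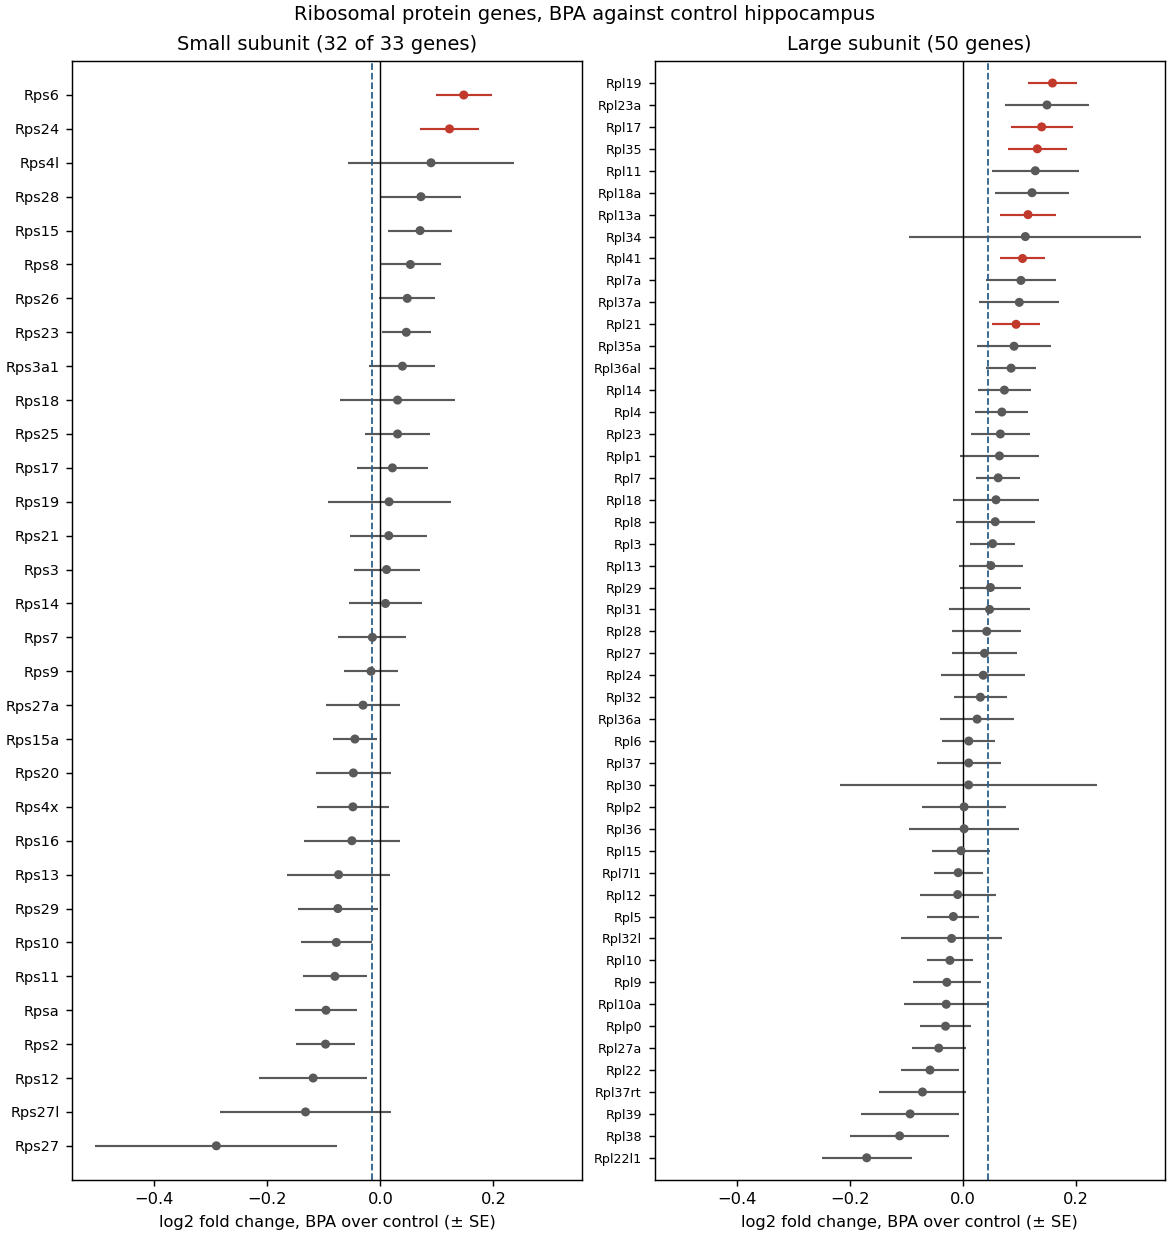
Log2 fold change of each gene, BPA over control, with its standard error (horizontal axis), for 32 of the 33 small subunit genes (left) and 50 large subunit genes (right); red marks an unadjusted p under 0.05 and the dashed line the median over the whole subunit. All 8 red genes lie above 0, and the medians are -0.014 for the small and 0.045 for the large subunit.

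Fold changes were also set beside merged exon length. Among tested genes outside the set, the median log2 fold change was 0.024 for the 783 under 1000 bases, with 58.7% above 0. It was 0.011 for genes of 1000 to 3000 bases and -0.0085 for the 8049 of 3000 bases or more, where 45.6% were above 0. The 57 ribosomal protein genes under 1000 bases had a median of 0.025. The part of exon length in the subunit values was not tested. Within the 83 genes, fold change and length had a Spearman rho of 0.01.

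Summed over the 33 small subunit genes, BPA replicates 1 to 4 held 1548, 1536, 1468 and 1445 CPM, and control replicates 1 to 4 held 1438, 1491, 1489 and 1531 CPM. The lowest value was a control and the highest a BPA library, and the groups overlapped along their whole range. The 50 large subunit genes summed to 3478, 3604, 3500 and 3418 CPM in BPA mice and to 3221, 3344, 3519 and 3449 CPM in controls. Here control replicates 1 and 2 were below every BPA library, and control replicates 3 and 4 lay among them.

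Both subunits together summed to 4999 ± 115 CPM in BPA mice and 4870 ± 159 CPM in controls (SD, n = 4 each), a log2 ratio of 0.038. Without control replicate 1 the log2 ratio was 0.017. The ratio of small to large subunit CPM was 0.445, 0.426, 0.419 and 0.423 in BPA replicates 1 to 4, against 0.446, 0.446, 0.423 and 0.444 in control replicates 1 to 4. Its mean was 0.428 ± 0.0115 in BPA mice and 0.440 ± 0.0112 in controls. The difference of -0.012 was close to 1 SD within a group: control replicate 3 lay with 3 of the BPA libraries, and BPA replicate 1 lay with the other 3 controls. Without the 3 genes that GENCODE lists as processed pseudogenes (Rpl37rt, Rps4l and Rpl32l), the ratio was higher in every library. It was then 0.466, 0.446, 0.441 and 0.443 in BPA replicates 1 to 4. In control replicates 1 to 4 it was 0.466, 0.469, 0.449 and 0.471.

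**Figure D3:**
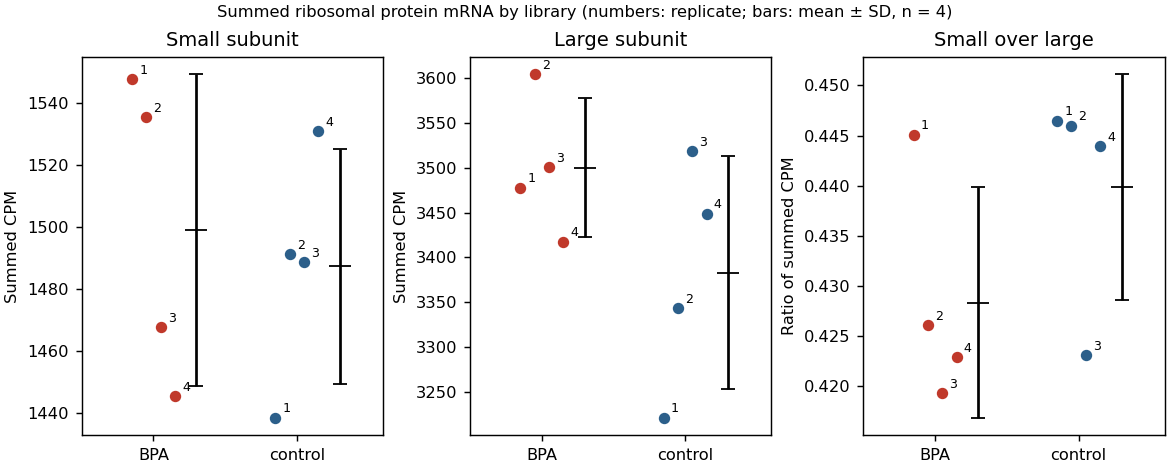
Summed CPM of small subunit genes (left), of large subunit genes (middle) and their ratio (right) in each library, with BPA left of control; numbers are replicates, and bars the mean ± SD (n = 4). The groups overlap in every panel; the ratio is lowest in BPA replicate 3 (0.419), and control replicate 3 (0.423) lies apart from the other controls.

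Within groups the genes tended to deviate together. After taking out group means, a gene's log2 CPM had a median correlation of 0.452 over the 8 libraries with the mean of the other 82 ribosomal protein genes, and 34 of the 83 were above 0.5. Among other tested genes the median was 0.0098 and 12.4% were above 0.5. The means of the 2 subunits had a correlation of 0.727. These points share libraries, depth and scaling, so the values are descriptions only.

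In control replicate 1, 6 of 33 small and 6 of 50 large subunit genes stood above their own mean over the 8 libraries. In control replicate 4 the counts were 26 of 33 and 27 of 50, and in BPA replicate 1 they were 23 of 33 and 41 of 50. In BPA replicates 3 and 4 the large subunit was near its mean, with 24 and 21 of 50 above it, while 8 and 10 of 33 small subunit genes were above. The biological coefficient of variation had a median of 6.14% over the 83 genes and 7.45% over all genes tested.

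At an unadjusted p under 0.05, 8 of the 83 genes were found (2 of 33 small and 6 of 50 large), against 4.52% of all genes tested. All 8 were higher in BPA mice, where 2.22% of all genes were, and 0 were lower, where 2.3% of all genes were. Of these 8 genes, 3 stayed under that p when BPA replicate 2 was left out and 4 when control replicate 4 was. With library total as a covariate 1 of them did. Groups did not overlap for 3 genes, against 2.79% of all genes. Rpl19 and Rpl41 were higher in every BPA mouse and Rps15a lower, the last of these at 66.2 ± 1.03 CPM in BPA mice and 68.3 ± 1.21 CPM in controls (SD, n = 4 each; edgeR adjusted p = 0.957), named after its values were seen.

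Rpl19 (chromosome 11, 98026710 to 98030492), a large subunit protein that also bridges to the small subunit, had the smallest p of the set. It was at 105, 113, 108 and 107 CPM in BPA replicates 1 to 4 and at 95.9, 93.1, 102 and 96.2 CPM in control replicates 1 to 4. Every BPA library was above every control library. The log2 fold change was 0.16 ± 0.044 (SE; fold 1.04 to 1.19, 95% interval; edgeR adjusted p = 0.955).

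Rpl41 (chromosome 10, 128548114 to 128549305), which encodes a very short, basic peptide of the large subunit, was at 127, 125, 117 and 126 CPM in BPA mice and at 114, 117, 114 and 115 CPM in controls. The lowest BPA library, replicate 3, lay just above the highest control, replicate 2. Its log2 fold change was 0.11 ± 0.040 (edgeR adjusted p = 0.955).

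Rpl35, near the mouth of the exit tunnel, was at 34.8, 37.6, 36.7 and 36.5 CPM in BPA mice and at 31.2, 32.95, 33.1 and 35.8 CPM in controls. Only control replicate 4 reached into the BPA range (log2 fold change 0.13 ± 0.052; SE here and in the brackets that follow). Rpl35 overlaps Arpc5l and Wdr38 on the opposite strand. Its counts are uncertain, since the labels do not say whether reads were assigned by strand.

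Rpl17, also at the exit tunnel, was at 39.3, 43.4, 38.8 and 40.0 CPM in BPA mice and at 36.0, 35.3, 39.8 and 35.6 CPM in controls. Control replicate 3 stood above 2 of the BPA libraries, and the other 3 controls were below all of them (0.14 ± 0.055). Rpl13a, a large subunit protein that in human cells can leave the ribosome to silence inflammatory mRNAs, was at 153, 166, 149 and 147 CPM in BPA mice and at 149, 138, 146 and 135 CPM in controls. BPA replicate 2 was highest, and control replicate 1 lay among the BPA libraries (0.12 ± 0.050). With library total as a covariate the log2 fold change was 0.0037 for Rpl13a and 0.21 for Rpl35. The eighth gene, Rpl21 of the large subunit, named after its values were seen, was at 109 ± 2.18 CPM in BPA mice and 102 ± 4.38 CPM in controls.

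In the small subunit, Rps6 (chromosome 4, 86854660 to 86857412) was at 144, 150, 135 and 135 CPM in BPA mice and at 127, 125, 136 and 122 CPM in controls. Control replicate 3 was level with the 2 lowest BPA libraries, and the other controls were below them (0.15 ± 0.050; edgeR adjusted p = 0.955). Rps24, mutated in some human patients with Diamond-Blackfan anaemia, was at 135, 147, 123 and 132 CPM in BPA mice and at 125, 120, 124 and 123 CPM in controls. BPA replicate 3 lay within the narrow control range (0.12 ± 0.051), and without BPA replicate 2 the log2 fold change was 0.077. With library total as a covariate it was 0.084 for Rps6 and 0.045 for Rps24.

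Some small subunit genes had lower means in BPA mice. Rps2, at the mRNA entry side of the small subunit, was at 41.2, 36.9, 39.7 and 37.6 CPM in BPA mice and at 41.0, 39.2, 42.3 and 43.7 CPM in controls (-0.097 ± 0.052). Rpsa, also known as the laminin receptor, was at 140, 121, 130 and 128 CPM in BPA mice and at 131, 145, 132 and 147 CPM in controls (-0.096 ± 0.055). The groups overlapped in both genes, with BPA replicate 1 inside the control range.

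With library total as a covariate the sign turned for Rps2 (0.011) and Rpsa (0.014), with the same limit that depth and exposure cannot be separated. Rps2 overlaps Snhg9 and Snora78 on the opposite strand.

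**Figure D4:**
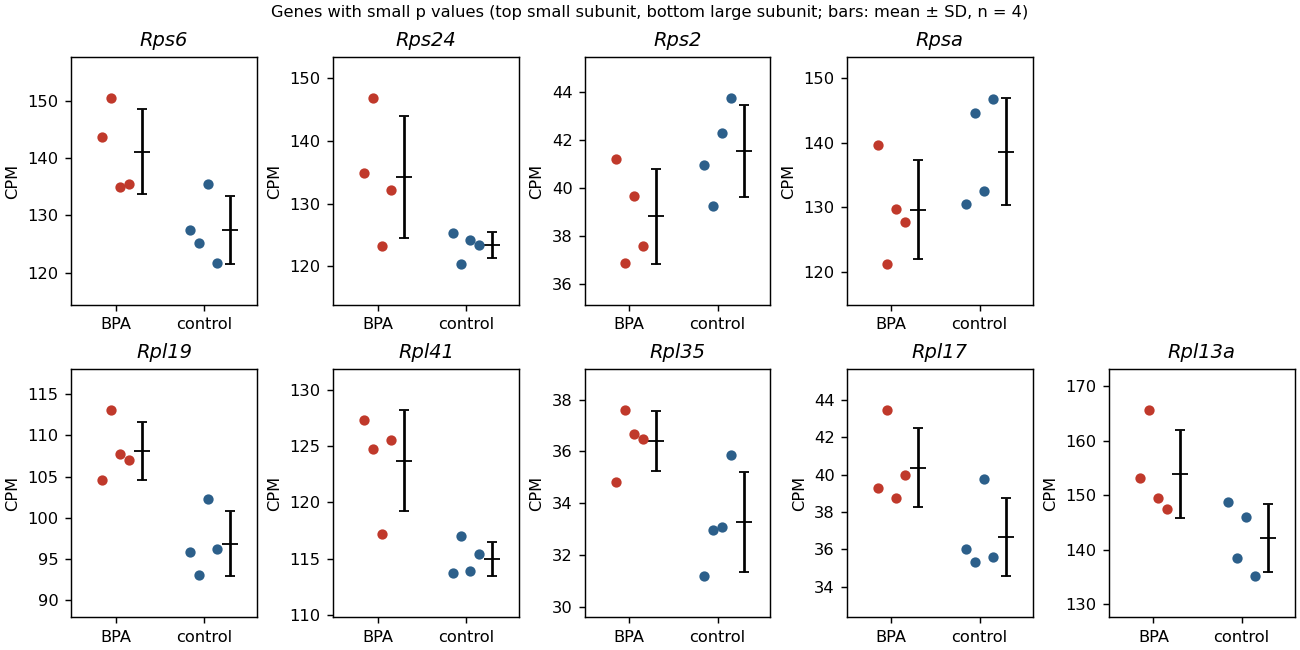
CPM in each library for 4 small subunit genes (top) and 5 large subunit genes (bottom) with small p values, with BPA left of control; points are replicates 1 to 4 from left to right and bars the mean ± SD (n = 4). The groups are apart only for Rpl19 and Rpl41, and each panel has its own CPM axis.

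Several ribosomal proteins have a paralogue that can take their place in the ribosome. Rpl22l1, the paralogue whose mRNA the RPL22 protein holds down in mouse cells, was at 11.2, 10.2, 10.5 and 10.97 CPM in BPA mice and at 12.1, 12.7, 10.3 and 13.1 CPM in controls. Control replicate 3 lay within the BPA range and the other controls above it (-0.17 ± 0.079; edgeR adjusted p = 0.955). Per kb, Rpl22l1 was at 19.1 CPM in BPA mice and 21.5 CPM in controls, and Rpl22 at 29.6 CPM in BPA mice and 30.8 CPM in controls. In BPA replicates 1 to 4 Rpl22 was at 59.5, 60.4, 61.1 and 61.6 CPM, and in control replicates 1 to 4 at 57.3, 67.0, 63.5 and 65.0 CPM, so the BPA libraries lay inside the control range. Rpl22l1 overlaps Gm33051 on the opposite strand.

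The other pairs were measured at unequal levels per length. Rpl36al was at 74.5 ± 2.31 CPM per kb in BPA mice and 70.2 ± 1.91 CPM per kb in controls, above its parent Rpl36a at 54.8 ± 3.63 CPM per kb in BPA mice and 53.9 ± 4.16 CPM per kb in controls. Rpl7l1, which acts in ribosome assembly, was at 13.0 CPM per kb in BPA mice and 13.1 CPM per kb in controls, against 115 CPM per kb in BPA mice and 109.8 CPM per kb in controls for Rpl7. Rps27l, a target of p53, was at 6.65 ± 0.762 CPM per kb in BPA mice and 7.28 ± 1.604 CPM per kb in controls. Its parent Rps27 was lower still, with the few unique words given above.

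Rps4l was at 12.8, 14.3, 11.5 and 12.3 CPM in BPA mice and at 15.3, 13.5, 8.52 and 10.2 CPM in controls, the control range enclosing the BPA range. Rps4x, its X-linked parent, was at 30.6 ± 1.604 CPM in BPA mice and 31.7 ± 2.55 CPM in controls (SD, n = 4 each). Rpl10l and Rpl39l, copies known from the testis, had 0 and 7 reads, and Rpl3l, the muscle form, had 44. Their parents were at 74.7 ± 1.82 CPM in BPA mice and 75.9 ± 2.29 CPM in controls for Rpl10, 25.3 ± 0.428 CPM in BPA mice and 27.1 ± 3.90 CPM in controls for Rpl39, and 127 ± 2.54 CPM in BPA mice and 122 ± 4.04 CPM in controls for Rpl3.

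Several ribosomal proteins also have roles outside translation. Rpl5 and Rpl11, which carry 5S rRNA and hold back the p53 ligase MDM2, were at 111 ± 4.28 CPM in BPA mice and 112 ± 4.92 CPM in controls for Rpl5, and at 12.7 ± 1.13 CPM in BPA mice and 11.7 ± 0.655 CPM in controls for Rpl11. Rps19, the gene most often mutated in human Diamond-Blackfan anaemia, was at 9.90 ± 1.24 CPM in BPA mice and 9.84 ± 1.26 CPM in controls. Rpl38, needed in mouse embryos for translation of Hox mRNAs, was at 6.28 ± 0.542 CPM in BPA mice and 6.79 ± 0.376 CPM in controls. Rps27a, made as a fusion with ubiquitin, was at 29.3 ± 0.488 CPM in BPA mice and 29.97 ± 2.95 CPM in controls. None passed the test (edgeR adjusted p 0.955 to 0.992).

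The symbol rule also misses ribosomal proteins with other names. Rack1, the signalling scaffold of the small subunit, was at 63.2 ± 0.947 CPM in BPA mice and 61.1 ± 2.44 CPM in controls, and Fau at 18.7 ± 1.26 CPM in BPA mice and 18.4 ± 0.721 CPM in controls. Rps19bp1, the gene kept out of the subunits, was at 9.68 ± 0.716 CPM in BPA mice and 8.94 ± 0.887 CPM in controls.

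Other genes of the ribosome pathway were taken from lists, and none of their members passed over all genes (edgeR, lowest adjusted p 0.955 in each list). At an unadjusted p under 0.05 there were 2 of 17 TOP translation genes, 6 of 40 assembly genes, 2 of 15 RNA polymerase I genes and 1 of 15 mTORC1 genes, against 4.52% of all genes tested. Of 17 translation factors and other proteins with TOP mRNAs, 16 had a log2 fold change above 0, with a median of 0.055. Eef1a1, which delivers aminoacyl-tRNA to the ribosome, was at 1431 ± 50.2 CPM in BPA mice and 1322 ± 58.0 CPM in controls (0.11 ± 0.043). Eif3h, a subunit of initiation factor 3, was at 85.2 ± 4.83 CPM in BPA mice and 78.6 ± 2.67 CPM in controls (0.12 ± 0.049).

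Of 40 ribosome assembly genes, 34 were above 0, also with a median of 0.055. Pes1, of the complex that matures the large subunit, was at 40.6 ± 1.40 CPM in BPA mice and 36.9 ± 1.57 CPM in controls (0.13 ± 0.048). Brix1, another large subunit assembly factor, was at 28.7 ± 0.955 CPM in BPA mice and 25.9 ± 2.01 CPM in controls (0.15 ± 0.059). Every BPA library was above every control, as for 1.37% of all genes tested. Other genes of these lists also had this, Cd3eap, Ttf1 and Mlst8 among them. Of 15 genes for RNA polymerase I, which transcribes rRNA, 11 were above 0 (median 0.055), among them its subunit Cd3eap (0.13 ± 0.051) and the termination factor Ttf1 (0.14 ± 0.064). With library total as a covariate the log2 fold change was 0.074 for Pes1, 0.087 for Brix1 and 0.068 for Ttf1. Npm1 is on both of the first lists.

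Summed CPM was lowest in control replicate 1 for the TOP translation list, the assembly list and both ribosomal subunits, and also for the dentate granule cell markers. These markers summed to 524 to 560.4 CPM in BPA mice and to 399.6 to 576 CPM in controls, with 7 of 8 above 0 (median log2 fold change 0.19). Oligodendrocyte markers summed to 2436 to 2559 CPM in BPA mice and to 2472 to 2755 CPM in controls. Of these 10 markers, 6 were below 0 and 4 above (median log2 fold change -0.025). At an unadjusted edgeR p under 0.05 there were 3 of the 10, against 4.52% of all genes tested. No marker of either type passed over all genes, and their part in the ribosomal values was not tested.

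Of 15 genes of mTORC1 and its control of TOP mRNAs, 8 were above 0, with a median of 0.0039. Mlst8, a subunit shared by both mTOR complexes, was at 15.3 ± 0.654 CPM in BPA mice and 13.8 ± 0.645 CPM in controls (0.15 ± 0.060). Rps6kb2, one of the kinases of RPS6, was at 7.29 ± 0.536 CPM in BPA mice and 8.15 ± 0.929 CPM in controls (-0.17 ± 0.093). Its log2 fold change was -0.10 without control replicate 2 and -0.29 with library total as a covariate. Pes1, Cd3eap, Mlst8 and Rps6kb2 overlap a gene on the opposite strand, as do Rpl3, Rpl5, Rpl30, Rpl7l1, Rps27a, Rps4l and Rack1, so their counts are uncertain.

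**Figure D5:**
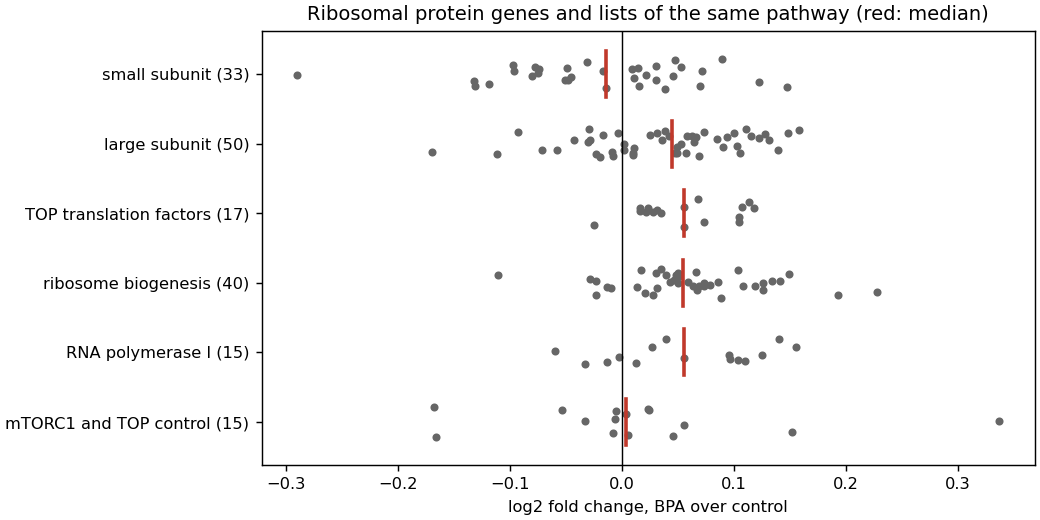
Log2 fold change of every tested gene, BPA over control (horizontal axis), for the small and large subunit and 4 lists of the same pathway, with the number of genes in brackets and the median in red; vertical scatter only separates points. The medians of the large subunit (0.045), TOP translation factors, assembly and RNA polymerase I lists (0.055 each) lie above 0, the mTORC1 list is at 0.0039 and the small subunit at -0.014.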

How the data were processed

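The authors deposited raw counts of reads per gene symbol, as whole numbers without normalization. The tools listed, per the submitters' processing notes, are featureCounts 1.5.0, STAR 2.3.0e, Trimmomatic 0.32 and DESeq2, with the mm10 build; per the file headers, genes follow refGene. Per the labels' protocols, RNA was selected for poly(A) and made into stranded ScriptSeq v2 libraries. Columns carry library codes, and sample titles hold the same codes.

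Genes were filtered with filterByExpr and tested with edgeR 4.0.16 (R 4.3.3; TMM scaling, quasi-likelihood, 1 group term, two-sided, Benjamini-Hochberg over 15434 genes). CPM values are TMM-scaled, and standard errors come from the test statistic. DESeq2 1.42.0 and limma 3.58.1 were alternatives. The test was tried on simulated data. It called 19 of 50 genes changed 1.25-fold and 47 of 50 changed 2-fold, with 13 false calls in all. Changes smaller than 1.25-fold were not simulated. No library was a copy of another: over the 12 replicate pairs, chi-square divided by its degrees of freedom ran from 10.2 to 24.8. Positions and lengths come from GENCODE M21 on mm10. The members and lists were chosen with earlier results of these data known. Genes were named by a rule: the 5 of each subunit with the smallest p, the extremes of level, fixed paralogue pairs and 7 fixed genes, and 2 genes per pathway list; Rpl4, Rpl21, Rps15a, Rps15, Rpl34, Rpl37rt, Rpl37, Rpl32l, Rpl31, Rpl14 and the processed copies were named after their values were seen. Some genes that the rule names are not reported here.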

Additional observations from a re-analysis of the deposited data

Results flagged for a closer look

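In 98 groups of 4 libraries, 4 had 1 library far from the other 3, where chance flags about 1 group in 20. Control replicate 3 had the highest Rpl17 level of its group, 39.8 CPM against 35.3 to 36.0 CPM in the other controls, and the highest Rpl36al level, 38.4 CPM against 36.2 to 36.6 CPM. It also had the lowest ratio of small to large subunit CPM of the controls, 0.423 against 0.444 to 0.446. BPA replicate 1 had the highest Rpl36a level of its group, 29.1 CPM against 25.4 to 25.9 CPM in the other BPA mice.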

How the results depend on the processing

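Of 443 results recomputed under other settings, 435 were counted as kept. Single genes had to keep their direction and side of the threshold. Medians, sums and ratios had to stay within the spread of replicates, even if their sign turned. Counts of genes had more room, so that a change from 8 to 12 was kept. No ribosomal protein gene was called under any of the settings. For the single genes followed, the lowest adjusted p over edgeR, DESeq2 and limma-voom settings was 0.629. Their side of the threshold was thus never near to changing, and the tally shows little beyond their sign. A loss of size, such as Rpl13a at 0.0037 with library total as a covariate, counted as kept. DESeq2 called 7 genes in all. The count of ribosomal protein genes at an unadjusted p under 0.05 was 8 in the test as reported, 3 with log2 library total as a covariate, and 3 to 12 on leaving out 1 library. With the replicate block it was 5. Same-numbered libraries did not deviate together (correlations of -0.146, -0.41, -0.338 and 0.0795), and 0 of 8 libraries correlated best with their own number, so the numbers were not taken as pairs. With the covariate the small subunit median was 0.045, and Rps2 (0.011) and Rpsa (0.014) changed sign. On leaving out 1 library the small subunit median ran from -0.042 to 0.0050 and the large from 0.016 to 0.065, and the log2 ratio of summed CPM from 0.017 to 0.052. Leaving out Rpl4, Rplp1 or the 3 processed copies was chosen after seeing the data, and only the ratio without the copies is given here. Genes of few reads, such as Rps27, Rpl30 and Rpl34, have wide intervals (folds of 0.592 to 1.47 at the extremes), so moderate differences were not detectable there.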
